A study of Mus musculus with 3 samples.

Results

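The laminin chains, nidogens and perlecan of β-actin knockout fibroblasts were described from 10 genes, Lama1, Lama2, Lama4, Lama5, Lamb1, Lamb2, Lamc1, Nid1, Nid2 and Hspg2. They were chosen by symbol, and all 10 were found among the 46603 Ensembl genes with deposited counts. The cells are KO-actin cells, mouse embryonic fibroblasts (MEFs) whose own β-actin gene was knocked out and in which an NLS-tagged β-actin, sent to the nucleus, was expressed instead. Polyadenylated RNA of this genotype was sequenced in 3 libraries, called replicates 1 to 3 here. Whether they came from separate cultures, and whether the line was 1 clone, is not given in the labels. Libraries of wild-type or knockout cells were not used here, and no change against them can be given.

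Laminins are cross-shaped proteins of basement membranes, each built in the endoplasmic reticulum from an α, a β and a γ chain wound into a coiled coil. The β and γ chains pair first, and the α chain completes the molecule for secretion and carries most of the receptor-binding sites. A trimer is named by its chains, so that laminin-521 holds α5, β2 and γ1. Nidogens bind the γ1 chain and link laminin to collagen IV, and perlecan is a large heparan sulphate proteoglycan that joins the same network. Among the α chains, α2 is best known from muscle and nerve, and α4 from mesenchymal cells and endothelia. The α3 chain is best known from surface epithelia, α1 from early embryos, and α5 from epithelia and endothelia.

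The 3 libraries held 49932446, 49587453 and 44383636 counts, and the 10 genes took 0.248% ± 0.00309 (SD, n = 3) of them. Levels are given as CPM, counts scaled to library size after TMM scaling of library sizes in edgeR, and levels of different genes were compared as CPM per kilobase of exon unless another scale is named. Actb, the knocked-out gene that was expressed again, had 1078, 1114 and 1063 CPM, and gene counts do not tell the tagged transgene from the locus. Replicate 2 stood apart, with a chi-square, divided by its degrees of freedom, of 11.2 against replicate 1 and 10.8 against replicate 3, where replicates 1 and 3 differed by 3.78. Of 10 fibroblast markers, 9 had more than 3 counts in every library, with Vim the highest per kilobase and Fap, at 0, 0 and 1 counts, the lowest. These 3 counts, which a count of 0 still allows, served as the floor of detection for counting error alone. Of all genes, 32.6% were above it in every library, and 8 of the 10 members were. In bulk RNA, fewer cells of a type and less RNA per cell cannot be told apart.

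Among the α chains, Lama5 alone was abundant. The upstream sequences of Lama5 and of Lama2, an α chain at the floor, are shown because these are the α genes of the set with a window in the promoter table used, 1 abundant and 1 at the floor. Each covers the 250 bases before the RefSeq start on GRCm38.p6, 5′ to 3′ on the strand of the gene, with CpG dinucleotides in capitals. The Lama5 window is chr2:180225860-180226109 and the Lama2 window is chr10:27616943-27617192, both on the minus strand.
Lama5: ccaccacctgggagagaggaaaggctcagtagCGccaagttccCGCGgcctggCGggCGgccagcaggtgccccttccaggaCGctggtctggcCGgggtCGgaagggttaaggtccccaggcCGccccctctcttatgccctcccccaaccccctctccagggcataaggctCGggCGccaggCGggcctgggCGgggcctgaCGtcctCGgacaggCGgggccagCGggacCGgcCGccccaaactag
Lama2: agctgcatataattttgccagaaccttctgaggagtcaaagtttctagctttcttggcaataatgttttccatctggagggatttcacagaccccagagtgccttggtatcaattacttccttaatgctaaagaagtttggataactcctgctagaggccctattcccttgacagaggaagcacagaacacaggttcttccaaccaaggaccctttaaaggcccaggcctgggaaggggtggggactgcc
The Lama5 window held 19 CpG and the Lama2 window 0, where the median of 32851 promoters of the same length was 6. The hexamer GGGCGG, known as a GC box and searched on both strands, occurred 4 times upstream of Lama5 and 0 times upstream of Lama2, and 32.7% of all promoters held it at least once. Neither window overlapped an annotated exon of its gene. GENCODE places the outermost start of Lama2 further upstream, so that the window shown is 1 of several possible start regions. Among the 6 members with a promoter in the table, CpG count did not order the genes by level. Lamb2, the most abundant member per kilobase, had 3 CpG, while Lamb1 had 14, Nid1 had 16 and Hspg2 had 20. Unlike the windows shown, those of Lamb2, Lamb1, Nid1 and Hspg2 overlapped annotated exons of their genes, by 48, 59, 51 and 34 bases.

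Lama5 encodes the α5 chain and lies on chromosome 2 of GRCm38 from 180176373 to 180225859. Its libraries gave 345, 367 and 334 CPM in the order of the replicates, and their mean was 349 ± 17.0 CPM (SD, n = 3). Per kilobase of exon the level was 30.6 ± 1.49 CPM (SD, n = 3), above 85.5% of the 13776 genes that had a known length and at least 10 counts in every library. All 3 libraries were close together, with replicate 2 the highest.

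The other 3 α genes of the set were low, and Lama1 and Lama2 were at or below the floor. Lama4, on chromosome 10 from 38965515 to 39110188, encodes the α4 chain and had 46, 46 and 58 counts, or 0.0871 ± 0.0177 CPM per kilobase (SD, n = 3). Lama5 exceeded Lama4 by 362-fold ± 78.3 (SD, n = 3) per kilobase of exon and by 181-fold ± 39.2 (SD, n = 3) per kilobase of the longest transcript. Lama2, which encodes the α2 chain and lies on chromosome 10 from 26980036 to 27619758, had 3, 0 and 2 counts. Lama1, on chromosome 17 from 67697259 to 67822647, encodes the α1 chain and had 1, 1 and 0 counts. Neither gene was above 3 counts in any library, so both were not detectable at this depth and cannot be ranked against each other. Set at the floor of 3 counts in each library, Lama2 lay at least 4199-fold and Lama1 at least 4161-fold below Lama5. These ratios are per kilobase of the longest transcript, the length that gives the lower values. A count of 3, as Lama2 had in replicate 1, still allows a level above this floor, so the ratio for Lama2 is not a strict bound. Lama3, the α3 gene, was no member and had 33, 32 and 21 counts, or 0.0552 ± 0.00997 CPM per kilobase (SD, n = 3). Lama5 thus carried 99.5% ± 0.0456 (SD, n = 3) of the summed per-kilobase level of all 5 α genes, and 99.2% when the longest transcript replaced all exons as the length.

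Little of the annotated sequence of these α genes was shared with other genes or overlapped by them, and reads in such stretches were not examined. Exons of other genes on the opposite strand covered 3.86% of the exonic length of Lama2 and 1.83% of that of Lama3. None of the 50-base windows of the longest Lama1, Lama4 and Lama5 transcripts occurred in another gene, and 1.14% of those of Lama2 did. Of the 6 nearest protein-coding neighbours of Lama1, Lama2 and Lama4, 4 had at least 1 CPM in every library. Lrrc30 beside Lama1, at 0 CPM, and Rfpl4b beside Lama4, at 0.0075 CPM, did not. Of all 21624 protein-coding genes with counts, 51.5% reached 1 CPM in every library. The 6 neighbours are too few to be set against this share. The level of 1 CPM was reached by 7 of the 10 members, all but Lama1, Lama2 and Lama4, and by 25.5% of genes of every type.

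**Figure D1:**
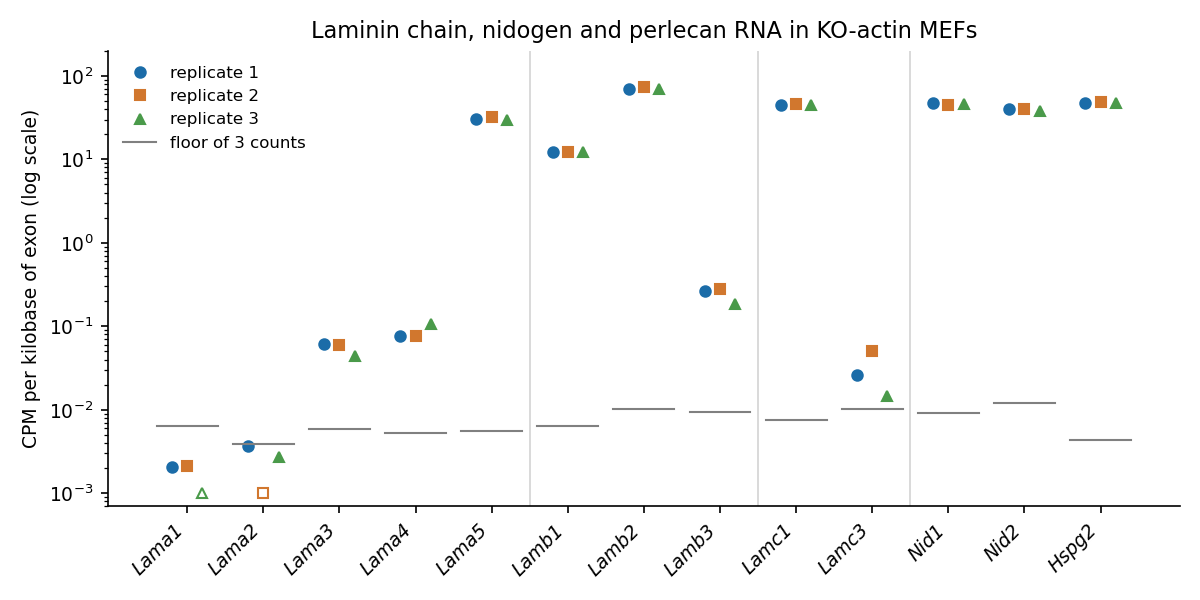
CPM per kilobase of exon on a log axis for 10 laminin chain genes, both nidogen genes and Hspg2, with 1 point per library. Grey lines mark the floor of 3 counts, open markers stand for counts of 0, and Lama1 and Lama2 lie at or below the floor while Lama5 lies near 30.6 CPM per kilobase.

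Lamb2 was the leading β chain and Lamc1 the leading γ chain. Lamb2, which encodes the β2 chain and lies on chromosome 9 from 108479736 to 108490530, had 419, 445 and 420 CPM, with replicate 2 the highest. Its mean of 70.4 ± 2.42 CPM per kilobase (SD, n = 3) was the highest of the 10 genes. Lamb1, the β1 gene on chromosome 12 from 31265234 to 31329644, had 123, 120 and 122 CPM, or 12.3 ± 0.165 CPM per kilobase (SD, n = 3). The libraries of both genes lay far apart from each other, and Lamb2 exceeded Lamb1 by 5.75-fold ± 0.273 (SD, n = 3) per kilobase. The exons of Lamb1 join to 9917 bases over all annotated transcripts, while its longest transcript has 5784 bases. By longest transcript the ratio was therefore 3.62. Lamb2 carried 84.9% ± 0.569 (SD, n = 3) of the summed β level and Lamb3, the β3 gene of epithelial laminins, 0.294% ± 0.0603 (SD, n = 3).

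Lamc1 encodes the γ1 chain, which holds the nidogen-binding site, and lies on chromosome 1 from 153218922 to 153332786. It had 374, 377 and 374 CPM, or 45.3 ± 0.174 CPM per kilobase (SD, n = 3). Its coefficient of variation over the libraries was 0.384%, within the 0.746% that counting error alone gives, although it passed the test between libraries once GC content was accounted for, as given further on. Lamc3, the γ3 gene, had 8, 15 and 4 counts, of which the lowest is just above the floor. Lamc3 shares 4.83% of its 50-base windows with Gm13441, whose exons cover 6.27% of its exonic length on the opposite strand. Of the summed level of Lamc1 and Lamc3, Lamc1 carried 99.9% ± 0.0393 (SD, n = 3).

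The α chains were the scarcest class. A laminin molecule needs an α, a β and a γ chain in equal number, so the class with the lowest summed level sets how many trimers the RNA could supply if all chains were translated alike. The summed levels were 30.8 ± 1.49 CPM per kilobase (SD, n = 3) for α, 82.9 ± 2.30 for β and 45.4 ± 0.192 for the γ chains reported here, γ1 and γ3. The libraries of the 3 classes did not overlap. Summed α was 0.679 ± 0.0299 of this γ sum (SD, n = 3), and summed β was 1.83 ± 0.0431 of it (SD, n = 3). With the longest transcript as length these ratios were 0.627 and 1.98, and with CPM alone 0.934 and 1.47, so α was the lowest class on each scale. RNA levels do not give protein levels, and translation, chain stability and secretion were not measured.

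**Figure D2:**
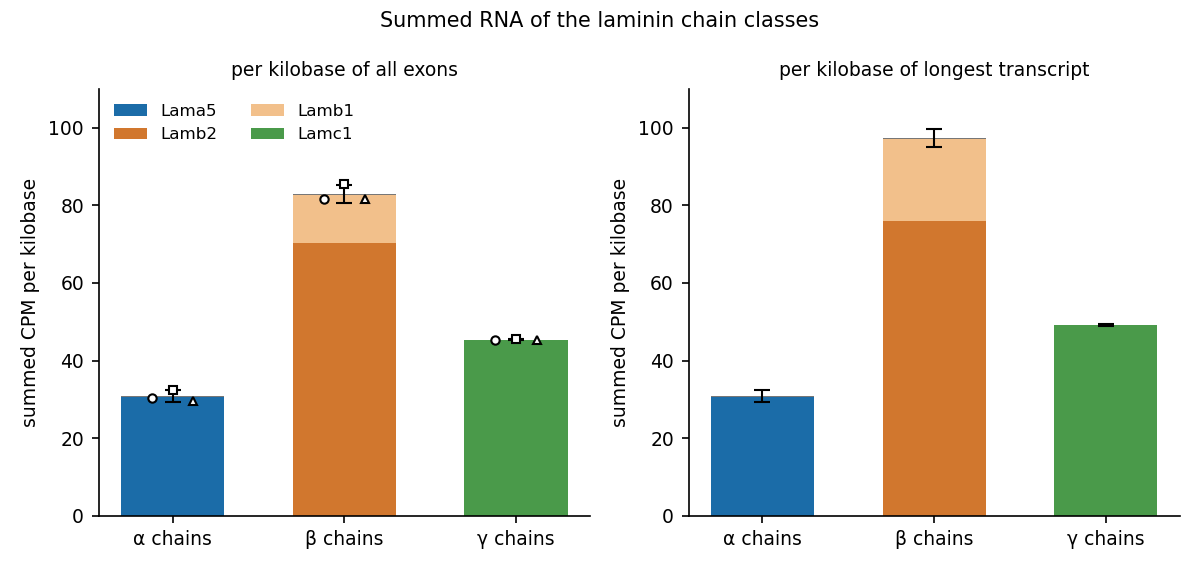
Summed CPM per kilobase of the laminin α and β chain genes and of Lamc1 and Lamc3 as γ chains, stacked by gene, over all exons on the left and over the longest transcript on the right. Bars are means, error bars are the SD over the libraries and open points on the left are single libraries. The α bar, almost all Lama5, is the lowest in both panels and the β bar the highest.

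For each of 13 named trimers, the level of its scarcest chain was taken as a limit on RNA stoichiometry. Of these, 2 had every chain at 1 CPM per kilobase or more, and both contain α5. Laminin-521 had the highest limit, 30.6 ± 1.49 CPM per kilobase (SD, n = 3), set by Lama5. Laminin-511 was limited by Lamb1 to 12.3 ± 0.165 CPM per kilobase (SD, n = 3), or to 21.0 by longest transcript. The limit of laminin-521 amounted to 67.6% of the Lamc1 level and that of laminin-511 to 27.0%, or to 42.7% by longest transcript. These limits cannot be added up, because laminin-521 and laminin-511 draw on the same α5 chain. Gene counts do not say how α5 would be shared between β1 and β2.

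The remaining trimers were limited to small fractions of the γ1 level. Laminin-411 and laminin-421, which Lama4 limits, reached 0.192% of the Lamc1 level, or 0.353% by longest transcript, and laminin-311 and laminin-321, which Lama3 limits, reached 0.122%. The muscle and nerve forms laminin-211 and laminin-221 were limited by Lama2, and laminin-111 and laminin-121 by Lama1, both at or below the floor. Laminin-423 and laminin-523 were limited by Lamc3.

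**Figure D3:**
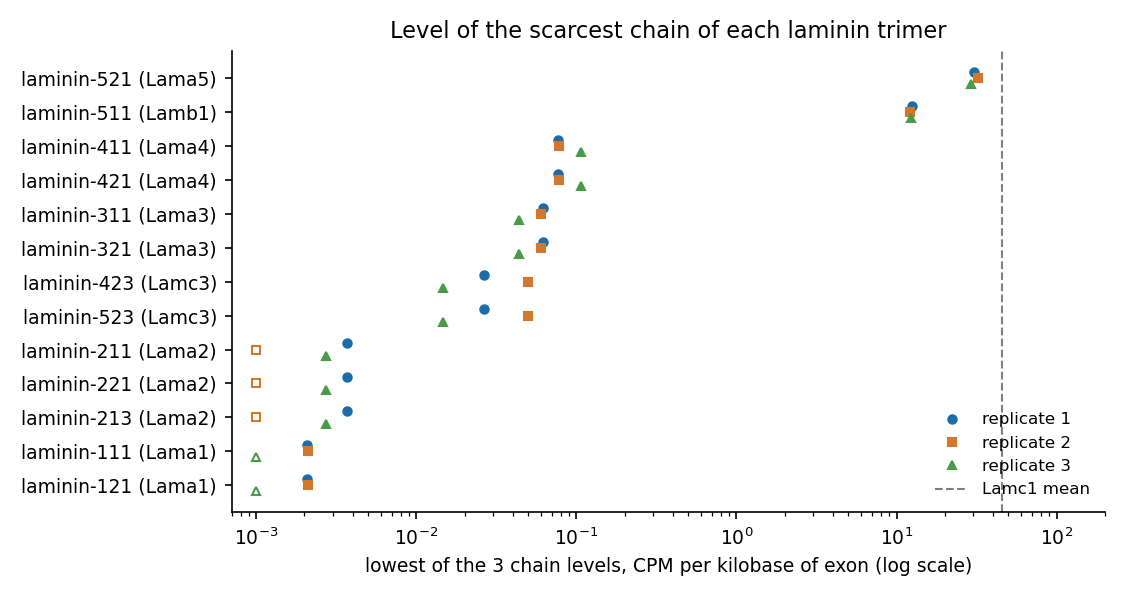
Level of the scarcest chain of each of 13 laminin trimers in CPM per kilobase of exon on a log axis, with that chain in brackets, 1 point per library and open markers for counts of 0. Laminin-521, at 30.6, and laminin-511, at 12.3, come closest to the dashed line at the mean of Lamc1, 45.3.

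Both nidogens and perlecan were expressed at about the level of Lamc1. Nid1, which encodes nidogen-1 and lies on chromosome 13 from 13437551 to 13512269, had 327, 308 and 318 CPM, lowest in replicate 2. Nid2, which encodes nidogen-2 and lies on chromosome 14 from 19751265 to 19811787, had 206, 209 and 195 CPM, lowest in replicate 3. Per kilobase these were 45.8 ± 1.42 for Nid1 and 39.3 ± 1.40 for Nid2 (SD, n = 3). Nid1 was thus 1.01 ± 0.0344 of the Lamc1 level (SD, n = 3) and Nid2 0.868 ± 0.0282 (SD, n = 3). Together they summed to 1.88 ± 0.0387 of it (SD, n = 3). Nid2 shares 8.04% of its 50-base windows with Rtraf, whose exons cover 8.45% of its exonic length on the opposite strand. Nid1 shares 3.67% of its windows with Gm2399 and Gm48682, and Gm48682 exons cover 2.06% of its exonic length on the opposite strand. The strand setting of the counting is not stated, so reads in these stretches cannot be told apart.

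Hspg2, the perlecan gene, lies on chromosome 4 from 137468769 to 137570630. It had 680, 702 and 670 CPM, the most counts of the 10 genes, and its exons join to 14307 bases. Per kilobase the level was 47.8 ± 1.13 CPM (SD, n = 3), or 1.05 ± 0.0210 of Lamc1 (SD, n = 3). By longest transcript it was 0.980 of Lamc1, so the order of these genes depends on the length used.

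In the order of levels per kilobase, Lamb2 led Hspg2, Nid1, Lamc1, Nid2, Lama5, Lamb1, Lama4, Lama2 and Lama1. Of the 9 neighbouring pairs, 6 had libraries that did not overlap. Hspg2 and Nid1 overlapped, as did Nid1 and Lamc1, and Lama2 and Lama1 were both at the floor. An exact two-sided sign-flip permutation test of the ratio within libraries gave a p of 0.25, the smallest that 3 libraries allow, for 6 of the 7 pairs above the floor, and 0.75 for Nid1 and Lamc1. By longest transcript the order was Lamb2, Nid1, Lamc1, Hspg2, Nid2 and Lama5, and Nid1 no longer overlapped Lamc1. From Nid2 downward the order was the same on both lengths. Lamb2 stood above 94.8% of the genes with a known length and at least 10 counts, Hspg2 above 91.5%, Nid1 above 90.9%, Lamc1 above 90.8%, Nid2 above 89.1% and Lamb1 above 66.8%.

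Differences between the libraries were small in size. A minimum of 10 counts per library was met by 29.6% of all genes and by 8 of the 10 members. These 8 had a median of 1.06 for the ratio of the highest to the lowest library, against 1.11 over all 13814 such genes. None of the 8 exceeded 1.5-fold, where 9.61% of all genes did. Neither comparison was matched for counts, and low counts widen this ratio by counting error alone. Neither shows the members to be steadier than other genes. A chi-square test against counting error with Benjamini-Hochberg adjustment called 5 of the 8, Lama5, Lamb2, Nid1, Nid2 and Hspg2, at a threshold of 0.05, where it called 43.9% of all tested genes. The test gains power with counts, and among genes with at least 100 counts the share called was 52.0%. Lama4, Lamb1 and Lamc1 did not pass. The test compares libraries of 1 condition, not conditions.

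Replicate 2 and GC content moved with the differences of some members. Replicate 2 was the highest library in 5 of the 8 members, where it was so in 39.7% of all tested genes, and the lowest in 2 of the 8, where it was so in 37.4%. Over all genes, the median log2 ratio of replicate 2 to the mean of replicates 1 and 3 was -0.099 in the 3443 genes of lowest GC content and 0.10 in the 3443 of highest. It was 0.11 for Lama5 at 59.9% GC, 0.085 for Lamb2 at 58.8%, 0.056 for Hspg2 at 60.9%, 0.058 for Nid2 at 54.6% and -0.070 for Nid1 at 50.4%. After scaling within bins of GC content, 4 of the 8 members were called, Lamb2, Lamc1, Nid1 and Hspg2, with a background of 29.9%. Lama5 then had an adjusted p of 0.0999, Nid2 of 0.0618 and Lamc1 of 0.0126 by the same chi-square test. The chi-square of Hspg2 rose from 36.6 to 90.2 with this scaling, and that of Nid1 went from 30.3 to 31.8. The part of GC content in these differences was not tested. Without replicate 2 only Lama5 and Nid2 were called, with a background of 12.5%.

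**Figure D4:**
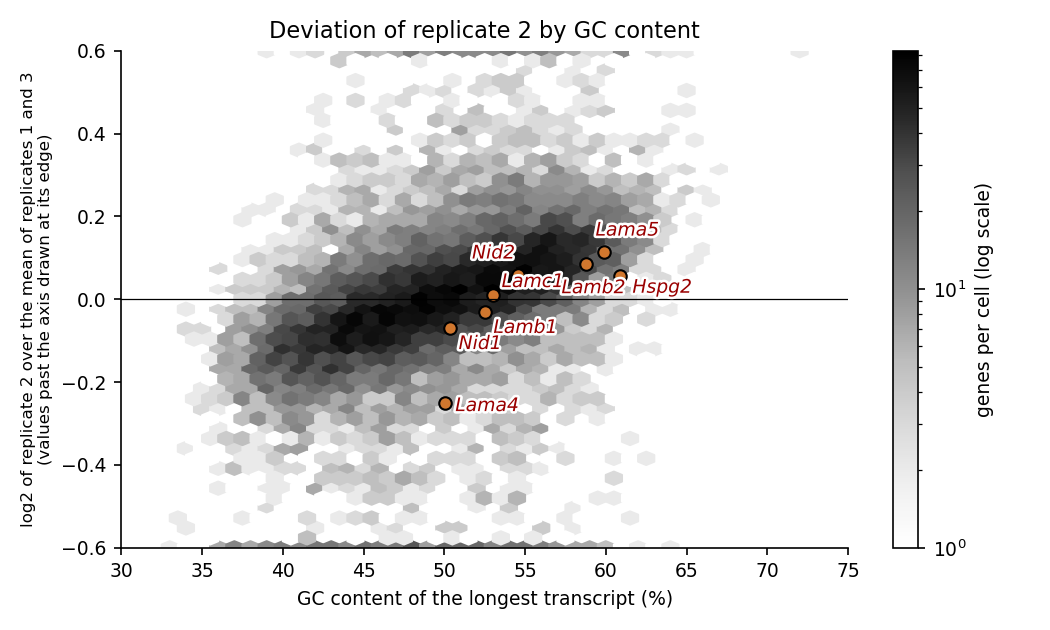
Log2 ratio of replicate 2 to the mean of replicates 1 and 3 against the GC content of the longest transcript, for all tested genes as grey cells and for the 8 tested members as orange points. Lama5, at 0.11, lies among genes of high GC content that were above 0, and Nid1, at -0.070, lies below 0.

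Known partners of these proteins in the basement membrane were taken as lists, and most listed genes had RNA above the floor of 3 counts. Of genes of every type, 32.6% were above it in every library. Of protein-coding genes, 51.5% reached the stricter level of 1 CPM in every library. A gene just above the floor has little RNA, and RNA does not show that the protein is present. Among the 6 collagen IV chains, 4 had more than 3 counts in every library. Col4a1 had 161 ± 3.25 CPM per kilobase (SD, n = 3) and Col4a2 113 ± 2.92 (SD, n = 3). These are the chains of the widespread collagen IV network, which holds α1 and α2 chains in a fixed proportion, and Col4a1 exceeded Col4a2 by 1.42-fold ± 0.0250 (SD, n = 3). Col4a5 had 29.1 ± 0.231 CPM per kilobase (SD, n = 3) and Col4a6 1.09 ± 0.0686 (SD, n = 3). Col4a3, with 3, 7 and 2 counts, and Col4a4, with 1, 2 and 2, were not above the floor in every library. Col4a1 was 3.55-fold ± 0.0668 and Col4a2 2.49-fold ± 0.0554 above Lamc1 (SD, n = 3).

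Of 21 other basement membrane components, 17 had more than 3 counts in every library. The highest per kilobase were Sparc, a collagen-binding matricellular protein, at 410.5 ± 12.2 CPM, Fbln2, the fibulin-2 gene, at 126 ± 5.19, and Tinagl1 at 49.2 ± 4.71 (SD, n = 3). Egfl6 had 0 counts in each library. Agrn, which encodes the heparan sulphate proteoglycan agrin, had 14.4 ± 0.697 CPM per kilobase, or 0.302 ± 0.00864 of Hspg2 (SD, n = 3).

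Of 8 genes for laminin-binding integrin subunits and the Lutheran receptor, 7 had more than 3 counts in every library. Itgb1, the β1 integrin subunit, had 203 ± 9.65 CPM per kilobase (SD, n = 3). Itga3 and Itga6 encode α subunits of integrins that bind α5 laminins. Itga3 had 53.6 ± 2.87 CPM per kilobase and Itga6 6.15 ± 0.207 (SD, n = 3), an 8.74-fold ± 0.744 difference that was 4.90-fold ± 0.417 by longest transcript (SD, n = 3). Itga2 was the lowest, with 6, 9 and 3 counts. Itgb4, the partner of the α6 subunit in epithelial hemidesmosomes, had 32, 15 and 16 counts and was named after its values were seen.

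Dystroglycan, a receptor that binds laminin, perlecan and agrin through a sugar called matriglycan, was also expressed. Dag1 had 53.6 ± 2.05 CPM per kilobase, or 1.18 ± 0.0407 of Lamc1 (SD, n = 3). All 12 listed genes of dystroglycan and its matriglycan enzymes had more than 3 counts in every library. B4gat1, at 30.7 ± 1.48 CPM per kilobase, and Pomgnt1, at 19.2 ± 0.272 (SD, n = 3), followed Dag1. Large2 was the lowest per kilobase, with 25, 45 and 12 counts.

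Among 10 proteases of basement membranes, 9 had more than 3 counts in every library. Ctsl, the cathepsin L gene, had 43.3 ± 1.32 CPM per kilobase, Mmp2 42.5 ± 1.09 and Mmp14 35.0 ± 1.55 (SD, n = 3), and Tll1 had 0 counts. The order of Ctsl, Mmp2 and Mmp14 reversed by longest transcript. Of 15 genes for the synthesis and editing of heparan sulphate chains, which perlecan carries, 13 exceeded the floor in each library. B3gat3 led with 32.9 ± 1.72 CPM per kilobase, before Ext1 at 23.4 ± 0.432 and Ext2 at 19.0 ± 0.999 (SD, n = 3). By longest transcript Ext2, at 37.3, was above Ext1, at 24.7. The chi-square test between libraries called 2 of 4 tested collagen IV genes, 8 of 16 other components, 4 of 7 receptors, 8 of 12 dystroglycan genes, 6 of 9 proteases and 10 of 13 heparan sulphate genes, against 43.9% of all genes. Xylt1 had 0 counts, while its paralog Xylt2, named after its values were seen, had 9.91 ± 0.720 CPM per kilobase (SD, n = 3).

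**Figure D5:**
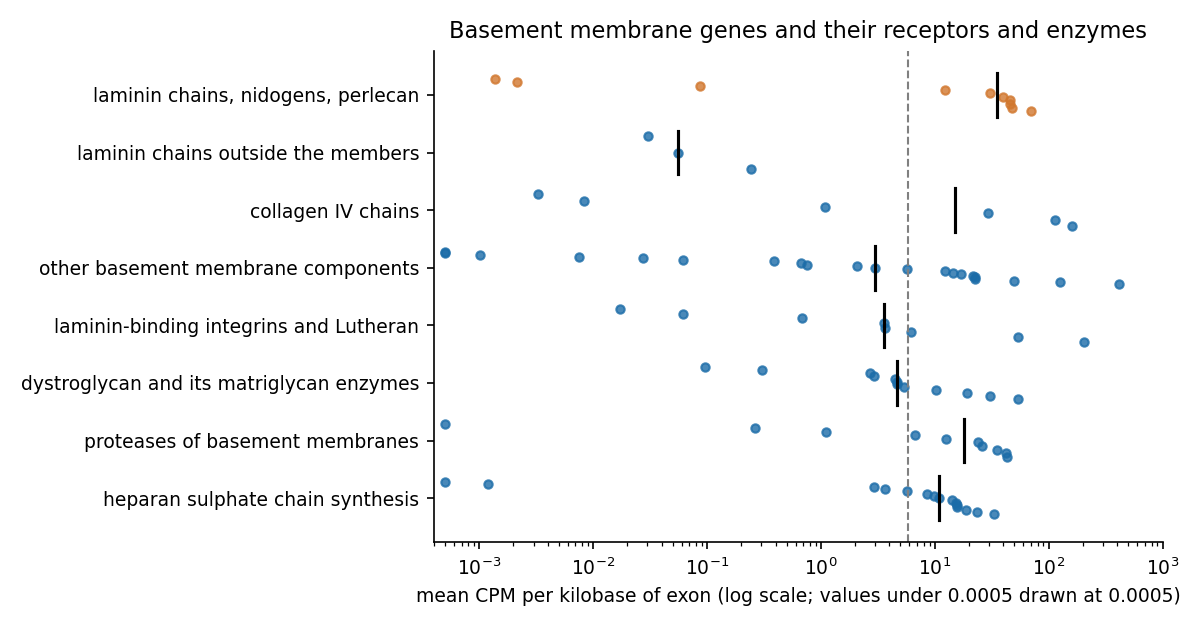
Mean CPM per kilobase of exon on a log axis, with 1 point per gene, for the 10 members in orange and for 7 lists of related genes in blue. Black bars are medians of the lists and the dashed line is the median of 5.88 over all genes with a known length and at least 10 counts in every library. The median of the collagen IV list, 15.1, is above that line, and that of the laminin chains outside the members, 0.0552, is below it.

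Markers of other cell types that make laminins differed by list. Those of smooth muscle had a median of 43.3 CPM per kilobase, against 5.88 over the tested genes with a known length, but were not all high. Of genes of every type, 32.6% were above the floor of 3 counts in every library. Of 8 endothelial markers 3 exceeded the floor in each library. The list summed to between 4.79 and 5.54 CPM, with Kdr the highest per kilobase and Cdh5 at 0, 0 and 1 counts. Of 8 epithelial markers 4 were above the floor, with a sum of 80.6 to 89.2 CPM that lay mostly in Krt18 and Krt19, while Epcam had 0, 1 and 0 counts. The smooth muscle list had 7 of 8 above the floor and summed to 7834 to 8038 CPM, of which Acta2 alone held 83.2% ± 0.103 (SD, n = 3), with Myh11, at 3, 7 and 6 counts, the lowest per kilobase. Of 8 skeletal muscle markers 1 was above the floor and 6, Myod1 among them, had 0 counts in every library, while Tnnt3 was the highest per kilobase with 0, 0 and 1 counts. The Schwann cell list had 2 of 6 above the floor with a sum of 8.90 to 10.1 CPM, Erbb3 the highest per kilobase and Foxd3 at 0 counts. The adipocyte list had 3 of 6 above the floor with a sum of 87.0 to 91.4 CPM, of which Pparg and Lpl held 99.7% ± 0.107 (SD, n = 3), while Adipoq had 0, 0 and 1 counts and Cidec 0. Lpl and Adipoq were named after their values were seen. The list for parietal endoderm, a tissue rich in laminin-111, had 4 of 6 above the floor and summed to 50.2 to 54.7 CPM, with Gata4 the highest and Sox17 at 0 counts. The part of such cells in the laminin levels was not tested.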

How the data were processed

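RNA-Seq of polyadenylated RNA from 3 KO-actin libraries was used. The deposited values are unnormalized read counts, 1 per Ensembl gene, for 46603 genes in each library. The submitters' processing notes name mm10 and GRCm38, Trimmomatic, FastQC, HISAT2 and HTSeq, without versions. The annotation release, the strand setting and the treatment of reads on several genes are not given in the sources used here. Counting conventions change values of overlapping genes.

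Symbols, positions and exons came from GENCODE release M21 on GRCm38, which matched 46091 genes by identifier and left 512 without a length. TMM scaling used R 4.3.3 and edgeR 4.0.16. Alternatives were total counts and the size factors of DESeq2 1.42.0. Levels were divided by the union of all exons, with the longest transcript or no length as alternatives. Levels, ratios and tests came from Python 3.11.15 with scipy 1.17.1, pandas 2.3.3 and numpy 2.4.6. Plots were drawn in matplotlib 3.10.9. Upstream sequences came from RefSeq on GRCm38.p6.

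Variation between libraries was tested in each gene with 10 or more counts per library, using a chi-square (2 degrees of freedom) and Benjamini-Hochberg adjustment over all 13814 of them. On simulated data for 13814 genes, with 200 changed in 1 library, it called 126 at 1.2-fold and 154 at 1.5-fold. Calls among unchanged genes were 8 and 3. The simulated counts held counting error alone, so these calls do not give the rate of false calls in the real libraries. Other filters, 50 bins of GC content and leaving out each library were alternatives. P-values measure only the spread between these libraries, which may be technical.

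Named were all members, the other laminin and collagen IV chains, and in each further list the 3 highest genes and the lowest per kilobase, with Agrn, Dag1 and Itgb1. For marker lists the counts, the highest and the lowest or a defining gene were given. Some genes of the laminin and dystroglycan lists, and trimers that need them, are not reported here and enter no sum or count of those lists. The members and lists were chosen with earlier results of these data known.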

Additional observations from a re-analysis of the deposited data

How the results depend on the processing

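No paired analysis was possible because the 3 libraries form a single group. With the longest transcript as length, the Lama5 share of the α chains was 99.2%, the Lamb2 share of the β chains 78.1%, summed α over summed γ 0.627, summed β over summed γ 1.98, Hspg2 over Lamc1 0.980 and the limit of laminin-511 21.0 CPM per kilobase. With CPM alone, the Lamb2 share was 77.6%, summed α over γ 0.934, summed β over γ 1.47, both nidogens over Lamc1 1.39 and Hspg2 over Lamc1 1.82. The limits of laminin-511 and laminin-521 were then 122 and 349 CPM, by construction of a scale without length. By the mean over libraries, 4 trimers had a limit of 1 CPM or more, against 2 per kilobase. The added laminin-411 and laminin-421 rest on Lama4, which had 0.922, 0.933 and 1.30 CPM in replicates 1 to 3. The members varying beyond counting error numbered 5, 2 and 4 of 8 without replicate 1, 2 and 3, against 5 of 8 with all. All genes so varying then numbered 4622, 1748 and 4786, or 33.1%, 12.5% and 34% of those tested, against 6063, or 43.9%. Both were lowest without replicate 2. These tests used 2 libraries and other sets of tested genes, so their shares are not like for like with those of all 3. With total counts or DESeq2 size factors, 5 of 8 members were called, where 43.9% of all genes were. With at least 1 count per library it was 5 of 8 members and 34.6% of all genes. With at least 100 counts it was 5 of 7 members and 52.0% of all genes. Leaving out 1 of 3 libraries can move a mean only within its spread, so it does not test the stability of levels. Depth limits what can be said of Lama1 and Lama2, which lie at the floor.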
